A study of Gallus gallus with 2 samples.

Results

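Ribosomal proteins are the protein parts of the ribosome, the particle that reads messenger RNA and builds proteins. The small subunit (RPS proteins) decodes the message and the large subunit (RPL proteins) joins the amino acids, and the acidic RPLP proteins form the stalk that recruits translation factors. Their messenger RNAs carry a short pyrimidine tract at the start that ties their translation to growth signals, and in developing brain proliferating progenitors are known for a high output of ribosome components.

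The members described here were all genes whose symbol began with RPL or RPS and a digit, or with RPLP and a digit, leaving out the RPS6K kinases. The rule found 71 of the 30108 genes in the deposited table, 44 named for the large subunit and 27 for the small. It uses names only, so it also took in 8 symbols of paralogs or of proteins that are no subunit: RPS19BP1, RPL7L1, RPL22L1, RPL26L1, RPL39L, RPL36AL, RPS27L and RPL3L. The symbols RPL26, RPL36A, RPL39, RPS19, RPL10, RPL41 and RPS4X were not among the 71 that the rule found, so they have no values here.

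The study profiled single cells of wild type chick cerebellum at embryonic day 6 (E6), E7, E8 and E9, with no treatment, using the Evercode WT Mini kit, which barcodes cells by rounds of splitting and pooling. Dissected tissue was pooled, so each stage is a single pool with no separate embryos, and there is no test between stages. The cells were read as 2 sublibraries, and each stage filled 3 first-round wells, which give technical splits of the same pool. There were 2488, 7648, 2478 and 2576 cells over the stages in turn.

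The files held 101255521 unique molecular identifiers (UMIs, counted molecules) in 15190 cells, with 49994439 UMIs in sublibrary 1 and 51261082 in sublibrary 2. The median number of UMIs per cell was 3025.5, 6047, 3310 and 3172 from E6 to E9 in turn. The stages also differed in transcripts of 5 genes on the W chromosome, which only female birds carry. These summed to 2.81, 160, 2.19 and 63.6 CPM (counts in 1000000 UMIs) from E6 to E9, so that stage and the make-up of its pool cannot be told apart. In all, 896 cell barcodes occurred in both sublibraries, and doublets were not removed.

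Ribosomal protein genes gave little of the counted RNA. They took 146681 UMIs, or 0.145% of the total, against 0.404% for 13 mitochondrial genes. The median cell held 6 of their UMIs, and 582 cells (3.83%) held none. All 71 genes had 100 or more UMIs over all cells, and 53 had 1000 or more.

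RPL7, a large-subunit protein, led with 13323 UMIs (132 CPM), followed by RPL36, also of the large subunit, with 10965 UMIs (108 CPM). The next was RPL21 at 52.6 CPM, then RPL3, which reaches towards the site of peptide bond formation, at 47.0 CPM. RPL7 and RPL36 together held 16.6% of the members' UMIs. The lowest was RPL3L, a paralog known from striated muscle in mammals, at 1.07 CPM. Large-subunit names held 72.1% of the UMIs.

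The members are short genes. Their spans, from the RefSeq annotation of the chicken assembly GRCg7b, ran from 517 bp for RPS29 to 10109 bp for RPS24. The median was 3235 bp over 70 placed members, against 17036.5 bp for the detected genes that have a span there. The median member stood at 14.1 CPM and the median detected gene at 2.30 CPM, which put the median member at percentile 70.6 of detected genes. Per kilobase of gene span the median member was at 4.78 CPM per kb, against 1.04 CPM per kb over the 12562 genes with a span. Its rank among these genes was higher, at percentile 93.3, though the ratio to the median gene was smaller. Among the members, longer genes had more UMIs, with a Pearson correlation of 0.56 between log2 CPM and log2 span over 70 genes that share the same libraries.

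For 11 of the 70 placed members the annotation has another gene over the same bases, among them RPS27 with NUP210L, RPL35 with SCAI and RPS16 with OTOGL. Whether the counting used strand is not given in the sources used here, so reads of such pairs cannot be told apart. Inside the spans of 23 members lie 43 annotated small RNAs, and 2 of these members, RPL27A and RPL23, also overlap another gene. RPL7, at chr2:117439284-117445888, and RPL36, at chr28:1088277-1091060, overlap neither. Processed copies of ribosomal protein genes can share reads with their source, and how the counting split them was not tested.

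The summed level was highest at E7 and lowest at E8. The members took 0.133% of UMIs at E6 (exact 95% Poisson interval 0.130 to 0.135) and 0.154% at E7 (0.153 to 0.154). The E8 share was 0.114% (0.112 to 0.116) and the E9 share 0.126% (0.123 to 0.128). All such intervals cover counting error only. Sublibrary 1 gave 0.135%, 0.154%, 0.112% and 0.131% from E6 to E9, and sublibrary 2 gave 0.131%, 0.153%, 0.116% and 0.121%.

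The 3 wells of E6 spanned 0.123% to 0.137%, those of E7 0.144% to 0.164%, those of E8 0.111% to 0.118% and those of E9 0.118% to 0.134%. The E7 wells stood above every well of the other stages. The E6 and E9 wells overlapped each other, and the E8 wells overlapped those of E9 but not those of E6.

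**Figure D1:**
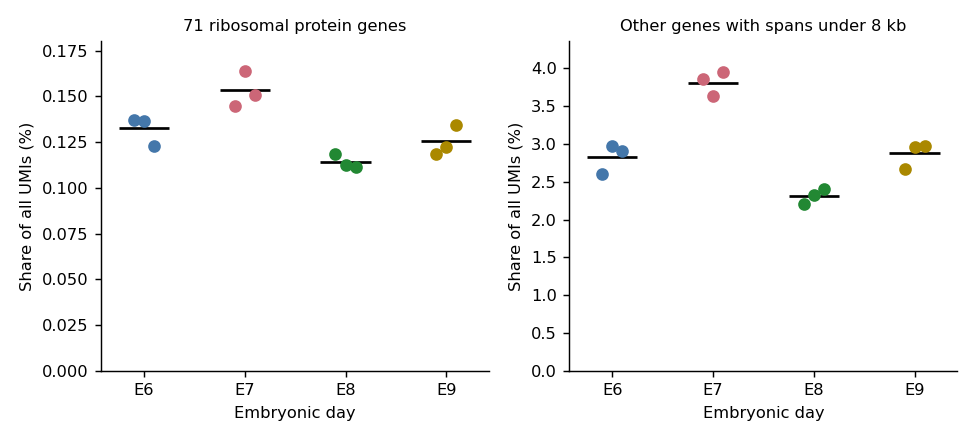
Share of all UMIs (%) by embryonic day for the 71 ribosomal protein genes (left) and for all other genes with spans under 8 kb (right). Points are the 3 first-round wells of a stage and lines the whole stage. Both sums are highest at E7 (0.154% and 3.81%) and lowest at E8 (0.114% and 2.31%).

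Other short genes were also highest at E7 and lowest at E8, while E6 and E9 stood in the other order. All other genes with spans under 8 kb took 2.82%, 3.81%, 2.31% and 2.89% of UMIs from E6 to E9, as the plot of both sums by well shows. The members were also taken as a percentage of the UMIs of all members, of any span, and other genes under 8 kb together. On this scale E8 was highest and E7 lowest, at 4.49%, 3.87%, 4.70% and 4.17% over the stages in turn. The shift of all short genes between stages therefore moved with the members' share, and its part in that share was not tested.

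Cell depth moved with stage as well. Within cells of 2000 to 4000 UMIs the members took 0.129% at E6, 0.157% at E7 and 0.108% at E8. At E7 the share lay between 0.152% and 0.161% in each of 5 depth classes, and the 978 cells of 16000 UMIs or more stood at 0.152%. Cells that deep did not follow the order of the stages: 28 at E6 stood at 0.156%, 26 at E8 at 0.161% and 31 at E9 at 0.178%. With every cell thinned to 1000 UMIs the shares were 0.130%, 0.153%, 0.114% and 0.122% from E6 to E9 in turn. The thinning left out 280 shallower cells, 83 at E6, 101 at E8 and 96 at E9.

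Single members were compared by a fixed fold rule. A gene was called when its CPM differed by 1.5-fold or more with the same direction in both sublibraries, among genes with 100 or more UMIs over the 2 sets of cells compared. No gene-level p is given, since each stage is a single pool. The E7 cells held 71622972 of all UMIs, so in comparisons with E7 a gene mostly reached this minimum through E7. Counts over the members tested in those comparisons are therefore descriptions, also where they differ from the background. Between the sublibraries themselves, 0 of 71 members were called, against 0.644% of all genes tested.

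From E6 to E7, 22 of the 70 members tested rose and none fell. Over all 14572 genes tested, 22.1% rose and 7.41% fell, beside 31.4% of the members rising. The median log2 ratio was 0.37 for the members and 0.18 for all genes tested. RPL3L was not tested for lack of UMIs.

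The 5 members with the largest E7 over E6 ratios were RPS27, RPS26, RPL32, RPS29 and RPL22. RPS27, a zinc-finger protein of the small subunit, was at 0.541 CPM at E6 (5 UMIs) and 3.49 CPM at E7 (250 UMIs), a log2 ratio of 2.69. Its E6 wells spanned 0.363 to 0.624 CPM and its E7 wells 3.01 to 3.98 CPM, without overlap. The E6 value rests on those 5 UMIs.

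RPS26, which lines the path where messenger RNA leaves the small subunit, was at 1.41 CPM at E6 and 3.95 CPM at E7 (log2 ratio 1.49). RPL32, a large-subunit protein, was at 4.43 CPM at E6 and 12.4 CPM at E7 (log2 ratio 1.49), with wells from 2.18 to 5.93 CPM and from 10.6 to 13.9 CPM. RPS29, the shortest member gene, had a log2 ratio of 1.46. The wells of RPS26 and RPL32 did not overlap between E6 and E7.

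RPL22, an RNA-binding large-subunit protein that mice can live without, rose from 3.35 to 7.87 CPM (log2 ratio 1.23). Its paralog RPL22L1 was at 11.9 CPM at E6 and 12.6 CPM at E7, and was not called. Only RPL22 of this pair passed the rule, and the difference between the pair has no test here.

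Among the stalk proteins, RPLP0 rose from 4.65 to 10.9 CPM (log2 ratio 1.22) and RPLP1 from 7.68 to 15.4 CPM (log2 ratio 1.00). RPLP2 was at 14.0 CPM at E6 and 19.7 CPM at E7, short of the rule. For RPLP0 a single E6 well was far below the others: the 3 wells were at 1.09, 6.08 and 6.24 CPM, and the E7 wells at 8.33, 11.5 and 12.4 CPM.

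RPL8, which sits by the peptidyl transferase centre, was among the steadiest between wells. It stood at 17.3, 17.8 and 18.2 CPM in the E6 wells, and at 28.0, 29.0 and 29.7 CPM in the E7 wells (log2 ratio 0.70). Other members that rose included RPS15, RPS20, RPS23, RPL36AL, RPL27, RPL19, RPS19BP1, RPS4Y1, RPS27L, RPL38, RPS3A and RPL23A. Just outside the rule lay RPL23, with a log2 ratio of 0.57, and just inside it RPL23A, with 0.59.

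Neither of the most abundant members was called between E6 and E7. RPL7 was at 144 CPM at E6 (interval 136 to 152) and 123 CPM at E7 (120 to 125). Its level was 165 CPM at E8 (157 to 173) and 149 CPM at E9 (142 to 157). Its E7 wells, at 114, 117 and 136 CPM, overlapped the E6 wells, at 135, 140 and 155 CPM, and lay below the E8 wells, at 156, 168 and 170 CPM. RPL7 was thus highest at E8, the stage at which the summed members were lowest.

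RPL36 was at 121, 106, 106 and 115 CPM over the stages in turn. Its wells overlapped between E7, E8 and E9. RPS7, RPS10 and RPS15A, of the small subunit, were the other members among the 5 lowest E7 over E6 ratios, with log2 ratios of -0.27, -0.22 and -0.13. None of these 5 passed the fold rule.

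As a share of the members' UMIs, RPL7 and RPL36 together made up 19.97%, 14.9%, 23.7% and 21.1% from E6 to E9 in turn. Without them, the other members took 0.106%, 0.131%, 0.0870% and 0.0991% of all UMIs from E6 to E9. Of all 71 members, 56 had their highest CPM at E7, 11 at E6, 3 at E9 and 1 at E8. The lowest value fell at E8 for 45 members, at E9 for 13, at E6 for 10 and at E7 for 3.

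**Figure D2:**
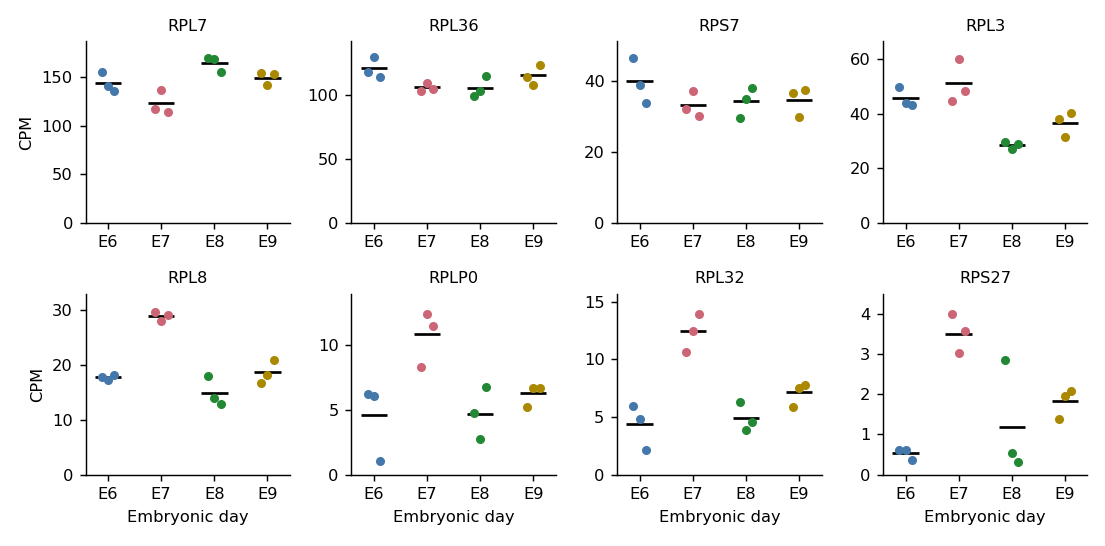
CPM of 8 ribosomal protein genes by embryonic day; points are the 3 first-round wells of each stage and lines the whole stage, with each vertical axis starting at 0. RPL7 is highest at E8 (165 CPM), RPL36 lies between 106 and 121 CPM, and RPL8, RPLP0, RPL32 and RPS27 are highest at E7.

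From E7 to E8, 41 of 70 members (58.6%) fell and none rose, against 27.2% of all genes falling and 14.5% rising. The median log2 ratio was -0.67 for the members and -0.18 for all 14653 genes tested. This comparison shares the E7 cells with the one before it. The largest drops were those of RPS26, RPS29, RPS20, RPS27 and RPL32.

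RPS26 went from 3.95 CPM at E7 to 0.896 CPM at E8 (9 UMIs), a log2 ratio of -2.14, and RPS29 from 3.56 to 0.995 CPM (10 UMIs), a log2 ratio of -1.84. RPS20, of the small subunit, went from 7.67 to 2.49 CPM, a log2 ratio of -1.62. RPS27 went from 3.49 to 1.19 CPM (12 UMIs), and its E8 wells were uneven, at 0.307, 0.550 and 2.85 CPM. RPL32 went from 12.4 to 4.88 CPM, a log2 ratio of -1.35.

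Among the abundant members, RPL3 fell from 51.3 CPM at E7 to 28.4 CPM at E8 (log2 ratio -0.86). Its E7 wells spanned 44.5 to 59.9 CPM and its E8 wells 26.97 to 29.4 CPM, without overlap. At the other end stood RPL7, RPS7, RPL37, RPL36 and RPS13, with log2 ratios of 0.42, 0.05, 0.02, 0.00 and -0.09, none of them called.

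From E8 to E9, 7 of 60 members rose and none fell, against 8.78% of all genes rising and 1.66% falling. They included RPS2, RPS3A, RPL10A, RPL34 and RPL19, with log2 ratios from 0.59 to 0.75. RPS2, near the entry of messenger RNA into the small subunit, went from 6.17 to 10.4 CPM. In either sublibrary alone 3 members were called, and 1 was called with TMM scaling, which took a log2 ratio of 0.15 as no change.

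The smallest E9 over E8 ratios were those of RPS6, RPL7, RPL17, RPS16 and RPL39L, from -0.21 to -0.09 on the log2 scale, and none was called. RPS6, the protein that S6 kinases phosphorylate, was at 45.5, 42.8, 39.5 and 34.2 CPM over the stages in turn.

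Between the ends of the series few members differed. From E6 to E9, RPL32 rose from 4.43 to 7.16 CPM, and RPS14 and RPS10 fell by 0.64 and 0.61 on the log2 scale. That is 1 of 60 members higher and 2 lower, against 20.6% and 10.0% of all genes tested. In sublibrary 1 alone neither direction had a call, and in sublibrary 2 alone 1 member was higher and 3 were lower. Other members towards the ends of this comparison included RPL35, RPS2 and RPLP0 above, and RPL38, RPL22L1 and RPS6 below, none called.

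The pools at E6 and E8, which both all but lack W transcripts, differed more. From E6 to E8, 11 of 57 members fell and none rose, against 13.8% of all genes falling and 16.3% rising. The largest drops were in RPL10A (-0.84 on the log2 scale), RPL22L1 (-0.79) and RPL29 (-0.77). RPS10 and RPL7L1, a nucleolar relative of RPL7, followed at -0.76.

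Shorter members had the larger changes between E7 and the stages on either side of it. Over 70 members, the log2 ratio of E7 over E6 had a Pearson correlation of -0.57 with log2 span, and that of E8 over E7 one of 0.50. The correlation was -0.31 for E9 over E8, -0.31 for E9 over E6 and 0.03 for E8 over E6. It was 0.34 for sublibrary 1 over sublibrary 2, where no stage differs. These ratios share cells, and genes share depth and libraries, so the correlations are descriptions.

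For spans under 2 kb the median log2 ratio of E7 over E6 was 0.98 over 12 members and 0.80 over 213 other genes. For 2 to 4 kb it was 0.40 over 35 members and 0.59 over 664 others, and for 4 to 8 kb 0.14 over 20 members and 0.47 over 1431 others. In these span classes 8, 13 and 0 members rose, against 58.2%, 49.4% and 39.7% of the other genes. Above 2 kb, then, fewer members rose than other genes of their length.

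From E7 to E8 the members' medians were -0.88, -0.72 and -0.50 in the same span classes, against -0.93, -0.83 and -0.69 for the other genes. In them 8 of 12, 25 of 35 and 7 of 20 members fell, against 65.4%, 65.4% and 57.9% of the others. Against genes of the same length, the share of members falling was near the background under 4 kb and below it from 4 to 8 kb.

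**Figure D3:**
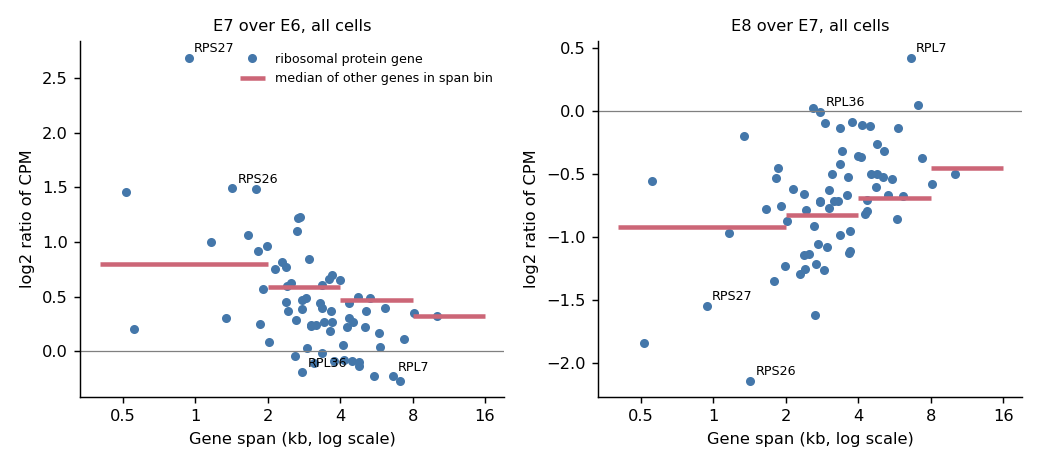
log2 ratio of CPM against gene span (kb, log scale) for each ribosomal protein gene tested (points), E7 over E6 (left) and E8 over E7 (right); bars are medians of other genes in the same span class. Short members sit highest on the left and lowest on the right, and RPL7 and RPL36 lie at or below 0 on the left and at or above most members on the right.

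Cell classes were set by marker gates that use no member gene. Each marker's count was divided by the count expected at the cell's depth. These values were averaged with weights equal to the square root of each marker's mean level. A cell passed a list when this weighted average reached 2 with at least 2 different markers, and it went to its highest list. The gates left 5857 cells (38.6%) without a class, and 1656 cells passed more than a single list. In the Purkinje class, neurons that are the sole output of the cerebellar cortex, the 7 Purkinje markers summed to 15159 CPM against 5204 over all cells. In the radial progenitor class, gated on genes of progenitors and radial glia, the 9 markers summed to 7557 CPM against 2392.

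The gates are not pure. The Purkinje marker SKOR2 stood at 153 CPM in the granule lineage class at E7 and 5.80 CPM at E9, beside 369 and 158 CPM in the Purkinje class. The Purkinje markers together summed to 4518 CPM in the erythroid class and 3134 CPM in microglia. Endothelial markers summed to 1565 CPM in the erythroid class and 1816 CPM in mural and mesenchymal cells, against 399 CPM over all cells. The part of free RNA, which gives UMIs in cells that do not express a gene, was not tested.

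As a share of all UMIs, vessel and mesenchymal cells had the highest summed level of ribosomal protein transcripts and Purkinje cells the lowest. Over all stages the share was 0.207% in endothelium (176 cells), 0.196% in mural and mesenchymal cells (491 cells), 0.174% in erythroid cells (71 cells), 0.165% in GABAergic progenitors (444 cells) and 0.155% in radial progenitors (2251 cells). It was 0.150% in microglia (89 cells), 0.139% in the granule lineage (847 cells), 0.138% in GABAergic interneurons (1571 cells), 0.133% in glutamatergic nuclear neurons (1089 cells) and 0.122% in Purkinje cells (2250 cells). Other genes under 8 kb took 4.75% of UMIs in endothelium and 2.98% in Purkinje cells. Relative to all members and these genes together, mural and mesenchymal cells (4.53%) and endothelium (4.18%) stayed highest, pooled over stages. Purkinje cells, at 3.94%, were not lowest on that scale, where microglia stood at 3.36%. Within stages that order changed further, as given below.

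The intervals of erythroid cells (0.162 to 0.187) and GABAergic progenitors (0.162 to 0.168) overlapped, those of microglia (0.141 to 0.159) overlapped radial progenitors and the granule lineage, and those of the granule lineage and interneurons overlapped. The other neighbours in this order, pooled over stages, differed beyond counting error. Over all 12 wells the share spanned 0.116% to 0.301% in endothelium and 0.0898% to 0.575% in erythroid cells. Classes differ in how many of their cells come from each stage, so the values within a stage follow.

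At E7, mural and mesenchymal cells stood at 0.210% (wells 0.197 to 0.237), radial progenitors at 0.169% (0.160 to 0.179), GABAergic progenitors at 0.163%, and microglia at 0.153%. The granule lineage was at 0.147%, interneurons at 0.146%, glutamatergic nuclear neurons at 0.142% and Purkinje cells at 0.133% (wells 0.124 to 0.146). The wells of radial progenitors and Purkinje cells did not overlap.

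At E8, endothelium was at 0.165% and mural and mesenchymal cells at 0.158%, radial progenitors at 0.119% (wells 0.115 to 0.125) and Purkinje cells at 0.0809% (wells 0.0752 to 0.0840). At E9 the same 4 classes were at 0.178%, 0.168%, 0.135% and 0.0913%. The intervals of endothelium and of mural and mesenchymal cells overlapped at both stages. They were 0.157 to 0.173 and 0.147 to 0.169 at E8, and 0.169 to 0.187 and 0.157 to 0.179 at E9. At E6, radial progenitors were at 0.156% and Purkinje cells at 0.104%, where the intervals of Purkinje cells and glutamatergic nuclear neurons (0.106%) overlapped. In each of the 4 stages the Purkinje class was below the radial progenitor class in all wells.

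**Figure D4:**
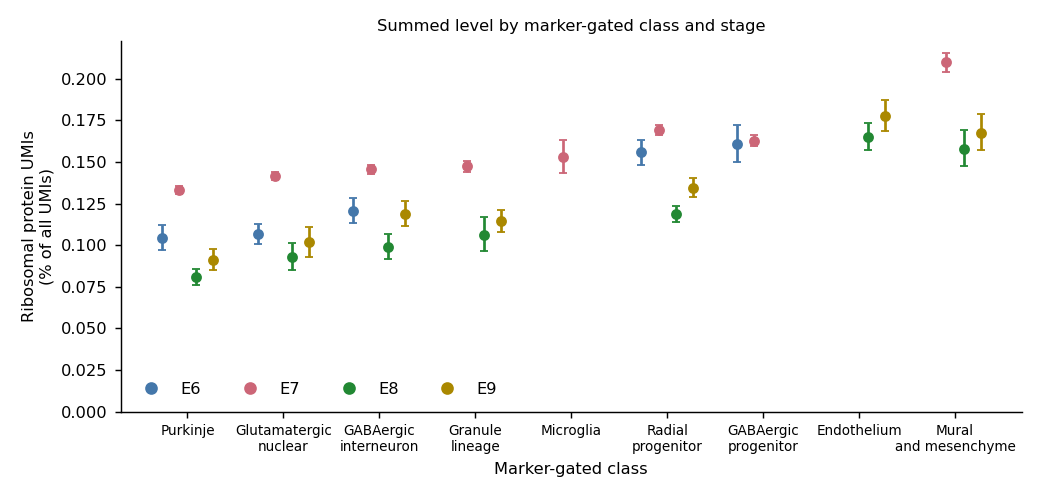
Ribosomal protein UMIs as % of all UMIs in each marker-gated class at each embryonic day, for classes with 50 or more cells; bars are exact 95% Poisson intervals for counting error. Purkinje cells are lowest at each stage (0.133% at E7) and mural and mesenchymal cells are highest at E7 (0.210%).

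Within every class measured at E6, E7 and E8, the share was highest at E7 and lowest at E8. For Purkinje cells it was 0.104%, 0.133%, 0.0809% and 0.0913% from E6 to E9 in turn, and for radial progenitors 0.156%, 0.169%, 0.119% and 0.135%. For interneurons it was 0.121%, 0.146%, 0.0990% and 0.119%, and for glutamatergic nuclear neurons 0.106%, 0.142%, 0.0929% and 0.102%.

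The log2 ratio of Purkinje cells over radial progenitors was -0.58, -0.34, -0.55 and -0.56 from E6 to E9. A scale chosen after seeing the data was the UMIs of all members and other genes under 8 kb together. Relative to these, the same ratio was -0.23, -0.02, 0.25 and 0.04 over the stages in turn. Short genes other than the members took 3.38% of UMIs in Purkinje cells and 4.23% in radial progenitors at E7, and 1.39% and 2.45% at E8. The lower share in Purkinje cells was thus not seen against other short genes at E7, E8 and E9.

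Gene by gene at E7, 14 of 64 members were lower in Purkinje cells than in radial progenitors and none was higher, against 32.5% and 15.8% of all 10205 genes tested. The members' share is below the background. In sublibrary 1 alone 6 were lower, in sublibrary 2 alone 19, and with TMM scaling, which took a log2 ratio of -0.26 as no change, 2. Their median log2 ratio was -0.36 and that of all genes tested -0.25.

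RPS13, which helps to bridge the subunits, was at 20.3 CPM in Purkinje cells and 37.4 CPM in radial progenitors (log2 ratio -0.89). RPS16 was at 8.77 and 16.2 CPM (-0.88). RPL27A and RPL32 had log2 ratios of -0.77 and -0.76. These are among the 5 lowest ratios.

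RPL10A, RPL14, RPS3, RPS24 and RPS21 had the highest ratios, from 0.04 to 0.16. RPL10A was at 21.8 CPM in Purkinje cells and 19.5 CPM in radial progenitors. RPL5, which with RPL11 carries the 5S ribosomal RNA and in mammals binds MDM2, was at 38.0 and 53.6 CPM, short of the rule. RPL7 was at 112 and 134 CPM and RPL36 at 90.2 and 103 CPM.

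Dividing and non-dividing radial progenitors had nearly the same summed level at E7. There the members took 0.169% of UMIs in 330 radial progenitors with division markers and 0.169% in 604 without them. None of the 50 members tested was called, against 10.6% of all genes. In the granule lineage at E7, whose gate holds Purkinje transcripts, the shares were 0.168% in 58 dividing cells (wells 0.156 to 0.214) and 0.144% in 394 others (0.126 to 0.153). At E9 they were 0.126% in 62 dividing cells (wells 0.115 to 0.137) and 0.110% in 204 others (0.107 to 0.111). Short genes other than the members also took more at E9, 3.25% of UMIs in dividing cells and 2.85% in the others. Relative to the UMIs of all members and other genes under 8 kb together, the members stood at 3.74% and 3.72% at E9. At E7 the dividing cells stayed above the others on this scale. As a share of all UMIs, the wells of dividing granule lineage cells lay above those of the others at both stages. The counting intervals of that share overlapped at E9 but not at E7. In radial progenitors the dividing cells had 0.160% against 0.154% at E6, 0.123% against 0.117% at E8 and 0.141% against 0.131% at E9, with wells that overlapped at each stage.

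Within Purkinje cells, 15 of 48 members rose from E6 to E7 and none fell, against 25.8% and 8.04% of all genes tested. RPL8 rose from 10.7 CPM (8 UMIs) to 25.9 CPM. RPL14 rose by 0.90 on the log2 scale from 10 UMIs at E6, with 0.19 in sublibrary 1 and 2.25 in sublibrary 2. RPLP1 rose by 0.92 from 5 UMIs at E6. Of the members that rose, only RPL8, RPL23 and RPL36AL had counting intervals at E6 and E7 that did not overlap. For all the others, RPL14 and RPLP1 among them, the intervals overlapped. At E6, RPL12 had 3 UMIs, RPS4Y1 and RPL35A had 4 each, and RPL23 and RPL36AL had 1 each, so that their ratios are not given. In sublibrary 1 or 2 alone 7 and 6 members were called. None rose with cells thinned to 1000 UMIs, with a minimum of 1000 UMIs or with a gate at 4 times the expected level.

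From E7 to E8, 36 of 48 members fell in Purkinje cells, against 40.9% of all genes, and none rose (8.72%). Of these 48, 46 reached the minimum in the E7 cells alone and 2 in the E8 cells alone, so the members were taken in through the stage where most stood higher, and the count only describes them. The median log2 ratio was -0.87 for the members and -0.43 for all genes tested. For 738 other genes under 8 kb it was lower, at -1.22. RPS3A fell from 28.1 to 7.65 CPM, RPL10A by 1.80 on the log2 scale and RPL3 from 43.5 to 16.7 CPM. RPL29 went from 11.0 CPM to 1.39 CPM, the latter from 2 UMIs. RPL7, at 112 CPM at E7 and 123 CPM at E8, and RPL36, at 90.2 and 76.5 CPM, were not called.

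Within radial progenitors, 13 of 55 members rose from E6 to E7 (background 21.9%) and RPL13 and RPL30 fell (7.05%). The share that rose, 23.6%, was near the background. With cells thinned to 1000 UMIs none rose and 1 fell, with a minimum of 1000 UMIs none was called, and with the gate at 4 times the expected level 1 rose. RPL27, RPL32 and RPL36AL rose most, by 1.76, 1.61 and 1.29 on the log2 scale, from 7, 6 and 7 UMIs at E6. In sublibrary 1 alone 6 members rose and in sublibrary 2 alone 4, and none fell. From E7 to E8, 37 of 56 fell (26.2%) and none rose (6.52%), where 50 of the 56 reached the minimum in the E7 cells alone and 2 in the E8 cells alone. The median log2 ratio of E8 over E7 was -0.85 for the members, -0.21 for all genes tested and -0.83 for 844 other genes under 8 kb. The lowest ratio was that of RPL32, at -2.66 (5 UMIs at E8), then RPL36AL at -2.07 (7 UMIs) and RPS4Y1 at -1.95 (9 UMIs).

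In interneurons 16 of 43 members rose from E6 to E7 (background 22.9%) and none fell (5.06%). Between E7 and E8, 20 of 40 fell (30.8%) and RPL7 rose (8.54%), from 115 to 174 CPM. In glutamatergic nuclear neurons 21 of 49 rose from E6 to E7 (28.4%) and none fell (6.78%). Between E7 and E8, 31 of 47 fell (34.3%) and RPL35A rose (7.92%), the latter from 10 UMIs at E8. Of these, 38 of the 40 and 43 of the 47 reached the minimum in the E7 cells alone. The members' median log2 ratio of E8 over E7 was -0.60 in interneurons and -0.75 in glutamatergic nuclear neurons. Other genes under 8 kb had lower medians there, of -0.95 and -0.93, and all genes tested had -0.26 and -0.31. The E9 cells held too few member UMIs for such counts by class: 2 members could be tested in Purkinje cells and 9 in radial progenitors between E8 and E9.

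RPL7 and RPL36 stood apart from the rest across classes too. In radial progenitors RPL7 was at 157, 134, 199 and 188 CPM from E6 to E9 in turn, while the 69 other members summed to 1287, 1453, 870.3 and 1033 CPM. Over the 27 sets of class and stage with 50 or more cells, RPL7 ranged from 79.2 CPM in microglia at E7 to 202 CPM in mural and mesenchymal cells at E8. RPL36 had its extremes in the same sets the other way round, at 60.3 CPM in mural and mesenchymal cells at E8 and 136 CPM in microglia at E7. These extremes rest on 46 and 104 UMIs for RPL7, and on 31 and 79 UMIs for RPL36. In radial progenitors both genes were higher at E8 than at E7, with RPL36 at 103 CPM at E7 (773 UMIs) and 118 CPM at E8 (222 UMIs). In Purkinje cells only RPL7 was, and its counting intervals overlapped, at 105 to 119 CPM at E7 and 106 to 143 CPM at E8.

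Together they made up 30.1% of the members' UMIs in interneurons at E8 and 12.1% in mural and mesenchymal cells at E7. The median member correlated with the sum of the others at a Pearson r of 0.74 over the 27 sets (53 members with 1000 or more UMIs), against a median of 0.26 for 8787 other genes with the sum of all members. RPL7 and RPL36 had r of -0.11 and -0.13, and RPL5 had 0.91. All sets share 2 sublibraries, and r was computed on log2 CPM with 0.5 UMI added.

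RPL36, RPL9 and RPS24 had the narrowest ranges over the sets, of 1.16, 1.17 and 1.18 on the log2 scale. RPL37A, RPL30 and RPL27 had the widest, of 5.04, 4.46 and 4.27, each because of a set listed with 0 UMIs. All 3 were highest in mural and mesenchymal cells, at 24.0, 25.3 and 22.8 CPM.

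The 10 other genes with profiles most like the summed members over the 27 sets were NCL, ANP32E, PCBP2, YBX1, RPSAP58, HNRNPU, EEF1B2, EIF3A, SEC61A1 and NUCKS1. Their r ran from 0.96 for NCL, the nucleolar protein nucleolin, to 0.93 for NUCKS1. The sum of all other genes under 8 kb had an r of 0.93 with the members.

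At E7 the members on a sex chromosome were lower in cells with W transcripts, and at E9 their sum was not. RPS6, RPL37, RPL17 and RPS23 lie on the Z chromosome, of which male birds carry 2 copies and females a single copy. At E7 there were 2406 cells with 2 or more UMIs from the 5 W genes and 4113 cells with none. The first had a median of 9580.5 UMIs and the second 5372, so that a shallow female cell can fall among those with no W UMI.

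The 4 Z members summed to 78.2 CPM in cells with W transcripts and 108 CPM in cells without, a log2 ratio of -0.46. The 67 other members were at 1432 and 1467 CPM, a log2 ratio of -0.03. The difference between these log2 ratios was -0.42, with -0.44 in sublibrary 1 and -0.40 in sublibrary 2. Over all 491 Z genes tested the median log2 ratio was -0.34, and over 9702 genes on other placed chromosomes 0.03.

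RPS6 was at 37.4 CPM in cells with W transcripts (interval 35.4 to 39.5) and 50.7 CPM without, and RPL37 at 18.1 and 25.5 CPM. RPS23 was at 6.91 and 10.1 CPM, with log2 ratios of -0.44, -0.50 and -0.54 for the 3 genes. None of the 4 passed the fold rule. The members that did were RPS26 and RPS27, both lower, 2 of 70 against 1.41% of all genes lower and 1.32% higher, with none higher.

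**Figure D5:**
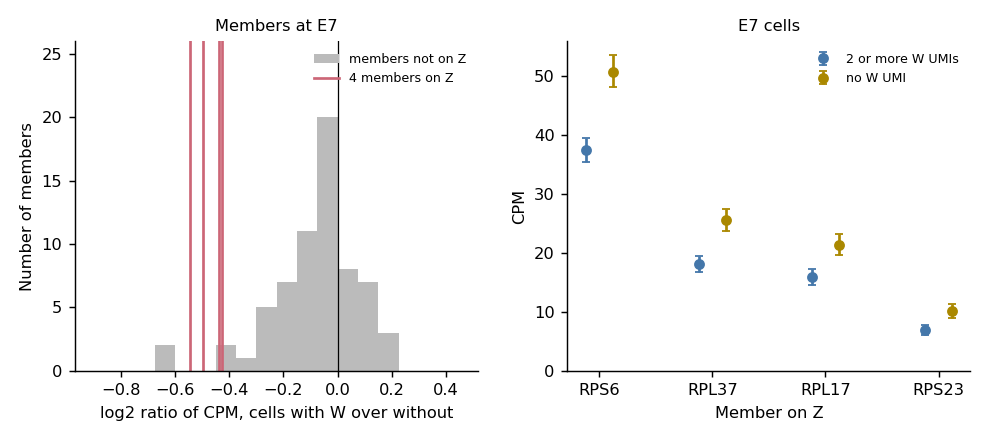
Left, number of ribosomal protein genes not on Z by log2 ratio of CPM in E7 cells with W transcripts over those without, with the 4 members on Z as vertical lines. Right, CPM of the 4 Z members in both sets of cells with exact 95% Poisson intervals; RPS6 is at 37.4 CPM with W transcripts and 50.7 CPM without.

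At E9 the split had 147 cells with W transcripts. The 4 Z members summed to 81.8 CPM with W transcripts and 73.8 CPM without, a log2 ratio of 0.15, the opposite direction to E7. The 67 other members were at 1490 and 1148 CPM, a log2 ratio of 0.38. Over all 371 Z genes tested the median log2 ratio at E9 was -0.47, the same direction as at E7. It was 0.07 over 6844 genes on other placed chromosomes. RPL17 was called higher with W transcripts, at 21.0 and 11.3 CPM (21 and 95 UMIs), and RPS23 stood at 11.97 and 5.12 CPM (12 and 43 UMIs) but was not tested. RPS6 and RPL37 had log2 ratios of -0.18 and -0.31. The difference between the log2 ratios of the Z and the other members was -0.23, with -0.04 in sublibrary 1 and -0.73 in sublibrary 2. Of 41 members tested there, 11 were higher in the cells with W transcripts and 1 was lower, against 9.04% and 5.90% of all genes, and the medians of UMIs per cell were 4519 with W transcripts and 3069 without. Across stages the Z members made up 6.46%, 5.89%, 7.05% and 5.88% of the members' UMIs from E6 to E9. This share was higher in the 2 pools that all but lack W transcripts. The summed level of the Z members was 85.6, 90.4, 80.4 and 73.9 CPM over the stages in turn, highest at E7.

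The paralogs and the names that are no subunit were measured as well. RPL7L1 was at 17.5, 22.6, 10.3 and 14.5 CPM over the stages in turn, and RPL26L1, a close copy of RPL26, at 19.0, 25.9, 15.8 and 17.8 CPM. RPS27L, a paralog of RPS27 induced by p53 in human cells, was at 1.30, 2.04, 1.59 and 1.94 CPM. RPL39L, known from testis in mammals, was at 6.92, 9.44, 5.97 and 5.61 CPM.

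RPS19BP1, which binds RPS19, was at 2.27, 3.83, 2.49 and 1.35 CPM from E6 to E9 in turn. RPS27A, made as a fusion with ubiquitin, was at 11.4, 13.5, 9.85 and 10.3 CPM. RPL11 was at 15.7, 14.5, 10.2 and 13.4 CPM. RPS4Y1, a symbol that in human belongs to the Y chromosome, lies on chromosome 4 in the chicken and was at 10.3, 16.3, 10.2 and 11.0 CPM.

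Other genes of translation had counts on both sides of the background. From E6 to E7, 7 of 38 translation factors rose, among them EEF1A1 and EEF2, which bring in transfer RNA and move the ribosome along, and EIF3H fell. Of 34 genes of ribosome assembly 7 rose and none fell, and of 63 mitochondrial ribosomal proteins 16 rose and none fell. The background was 22.1% rising, and the medians were 0.28, 0.30 and 0.30 on the log2 scale.

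From E7 to E8, 17 of 38 translation factors, 16 of 34 assembly genes and 25 of 63 mitochondrial ribosomal proteins fell and none rose, against 27.2% of all genes falling, with medians of -0.56, -0.56 and -0.54. RACK1, a small-subunit protein outside the name rule, also fell from E7 to E8. Between Purkinje cells and radial progenitors at E7, 14 of 29 assembly genes were lower and none higher, against 32.5% and 15.8% of all genes, among them NCL, DKC1 and NOP58. Of 38 translation factors 6 were lower, a smaller share than the background, and EEF1A2, the neuronal and muscle form of the elongation factor, was higher. Of the S6 kinases, RPS6KA1 and RPS6KA2 were higher in Purkinje cells, 2 of 8 tested, against the same 15.8%.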

How the data were processed

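The authors deposited a matrix of raw UMI counts for cells and genes, with a table of each. Cell Ranger, Seurat and the build GRCg7b are named in the submitters' processing notes, and the program that assigned reads to genes is not given in the sources used here. Cells had 500 or more UMIs as deposited, and no doublet caller was run. Stage came from the cell table, and sublibrary and well from barcodes. Members and gene lists were chosen with earlier results of these data known.

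Counts were summed over cells and divided by the UMIs of those cells (CPM or percent), with exact 95% Poisson intervals. Each stage is 1 pool, so no p-value was computed. A gene was called at 1.5-fold with the same direction in both sublibraries, among genes with 100 or more UMIs. The calls were tested on simulated data. Named members were the 5 highest and 5 lowest ratios per comparison, fixed paralogs and Z genes, the 3 widest and 3 narrowest ranges, and the 10 most similar genes. A few members and list genes that this rule names are not reported here by name, though they stay in the sums and counts. Positions and spans came from RefSeq's table for GRCg7b by symbol, which placed 70 of 71 members. NEDD4L was left out of the W genes after its level at E6 and E8 was seen. TMM factors were computed in edgeR 4.0.16 with R 4.3.3, and all else in Python 3.11.15 with numpy 2.4.6, scipy 1.17.1 and pandas 2.3.3.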

Additional observations from a re-analysis of the deposited data

How the results depend on the processing

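No paired analysis was possible because each stage is 1 pool and no test was run. Of 243 alternative values for 23 results, 154 stayed close to the reported value, 87 moved away from it and 2 changed sign. Causes were not tested. E7 was the highest and E8 the lowest stage under all 9 settings tried for the summed share of UMIs. Relative to all members and other genes under 8 kb together, E7 was instead lowest (3.87%) and E8 highest (4.70%). That scale is not among the 9 settings. Without mitochondrial genes and the most abundant gene in the total, the shares were 0.138%, 0.162%, 0.119% and 0.133% from E6 to E9. Without paralogs and names of no subunit they were 0.126%, 0.144% and 0.109% at E6, E7 and E8, and without RPL7 and RPL36, a setting added after seeing the data, 0.106%, 0.131%, 0.0870% and 0.0991%. Thinned cells gave 0.130% at E6 and equally weighted cells 0.111% at E8.

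The log2 ratio of Purkinje cells over radial progenitors changed sign at E8 (0.25) and E9 (0.041) relative to all members and other genes under 8 kb together. That setting was added after seeing the data, and in it the ratio was -0.23 at E6 and -0.018 at E7. With a gate at 4 times the expected level the log2 ratio was -0.40, -0.48, -0.76 and -0.68 from E6 to E9. With cells weighted equally it was -0.40 at E7 and -0.50 at E8. At E8 it was also -0.58 in cells of 2000 or more UMIs, -0.45 thinned, -0.59 without mitochondrial genes and the most abundant gene, -0.58 with 3 or more markers and -0.51 without RPL7 and RPL36.

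Counts of members called depended on UMIs. With cells thinned to 1000 UMIs, 13 members rose from E6 to E7, 1 rose from E7 to E8, 1 rose from E8 to E9 and none rose from E6 to E9. The same thinning left none rising from E6 to E7 in Purkinje cells, none rising and 1 falling in radial progenitors, and 2 lower in Purkinje cells than in radial progenitors. At a minimum of 1000 UMIs, 8 rose from E6 to E7, 20 fell from E7 to E8, and 0 were called from E8 to E9, from E6 to E9, in either class from E6 to E7 and between the classes. At 2-fold the counts were 9 rising from E6 to E7, 17 falling from E7 to E8, 0 from E8 to E9 and from E6 to E9, 7 rising in Purkinje cells, 4 rising and 0 falling in radial progenitors, and 0 between the classes.

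With only 1 UMI required in each set, 11 rose and 1 fell from E8 to E9, 4 rose and 4 fell from E6 to E9, 26 rose and 1 fell in Purkinje cells and 20 rose in radial progenitors from E6 to E7. TMM scaling gave 1 rising from E8 to E9, 0 rising from E6 to E9 and 2 lower between the classes. Equal weights gave 5 falling from E6 to E9 and 22 lower between the classes, and cells of 2000 or more UMIs gave 0 rising and 1 falling from E6 to E9. With 3 or more markers, 1 fell in Purkinje cells from E6 to E7. With the gate at 4 times, 0 rose in Purkinje cells, 1 rose and 0 fell in radial progenitors, and 1 was lower between the classes.

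Leaving out each sublibrary in turn gave 3 rising from E8 to E9 both times, 0 to 1 rising and 0 to 3 falling from E6 to E9, 6 to 7 rising and 0 to 1 falling in Purkinje cells, 4 to 6 rising and 0 falling in radial progenitors, and 6 to 19 lower between the classes. For the Z members at E7, the difference of log2 ratios was -0.51 with equal weights, -0.46 thinned, -0.39 with 1 or more W UMIs and -0.64 in cells of 4000 to 8000 UMIs, the last added after seeing the data.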
